A study of Rattus norvegicus with 9 samples.

Results

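The insulin-like growth factor (IGF) system was followed in the amygdala of female spontaneously hypertensive rats (SHR), an inbred strain with high blood pressure, with and without estradiol replacement. Its 10 genes were Igf1, Igf2, Igf1r, Igf2r, Igfbp2, Igfbp3, Igfbp4, Igfbp5, Igfbp6 and Irs1. They were found by the gene name printed on the array and held 18 of its 45598 probes. All 18 probes passed the filter on dim signals (4 or more of the 9 arrays clearly above background), and each was in fact above background on all 9. Both ovaries of every rat were removed at 4 weeks of age, and after 1 week of recovery an Alzet minipump was implanted. In the OV group (4 rats) the pump held the vehicle PEG. In the OV+E2 group (5 rats) it released 2 µg of estradiol a day for 4 weeks. All rats were 9 weeks old at death, the amygdala of both sides of 1 rat went on each 1-colour array, and rats with ovaries were not analysed here.

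IGF-1 and IGF-2 are peptides related to insulin. They signal through the tyrosine kinase receptor encoded by Igf1r, whose docking protein Irs1 passes the signal to the PI3 kinase and Akt pathway, whereas the receptor encoded by Igf2r takes up IGF-2 and sends it to lysosomes. In the extracellular space most of the peptide is held by binding proteins (Igfbp genes), and proteases that cut these proteins set it free. In the adult brain the meninges and choroid plexus are known sources of IGF-2, microglia and some neurons make IGF-1, and estradiol and IGF-1 signalling are known to interact in neurons.

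The receptor genes were higher and the ligand Igf2 was lower in OV+E2, without passing a test over all probes. Igf1r was higher by 0.26 (SE 0.11) and 0.51 (SE 0.10) at its 2 probes, and Igf2r by 0.20 (SE 0.08), as log2 differences with n = 4 OV and 5 OV+E2. At its brightest probe Igf2 differed by −0.29 (SE 0.12). The probes of Igf1 split in direction in the planned comparison. They were all lower without OV replicate 3, with array weights and in the authors' deposited table. These settings are not independent, because they leave out that array, give it the lowest weight or hold other values for it. The intervals of the binding protein genes and Irs1 included 0. Every level below is the log2 signal of a probe minus the log2 of the 75th percentile of its array. Levels of different probes are not compared, because probes differ in how brightly they hybridise. In tissue RNA, fewer cells of a type and less RNA per cell cannot be told apart.

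One array stood apart from the rest, OV replicate 3. Its 75th percentile of the signal was 130, against 557 to 738 on the other 8 arrays, and its mean correlation with the others was 0.932 against 0.981 to 0.984. The value that the authors' deposited table gives for this rat also departs from the scanner file, with an SD of 1.00 for the log2 ratio against at most 0.0307 for the other rats. At the 18 probes OV replicate 3 lay between 0.78 below and 3.91 above the mean of the other 8 arrays, on the log2 scale. The differences of the 10 genes are therefore given with and without it, and other genes and lists have the value without it where it moved by over 1.5 times or crossed the threshold.

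In limma, 0 of the 18 probes passed an adjusted p of 0.05 (Benjamini-Hochberg over 30215 tested probes), where 0% of all probes passed. At an unadjusted p under 0.05 there were 6 of 18 probes, 3 higher and 3 lower, against 10.4% of all probes, 3.2% higher and 7.17% lower. With each gene represented by its brightest probe, 3 of 10 genes were under that value: Igf1r and Igf2r on the higher side and Igf2 on the lower side. That count of genes changed when single rats were left out. It was 0 without OV replicate 2 or 5 or without OV+E2 replicate 3, 4 or 5. It was 1 without OV+E2 replicate 1 or 2, and 2 without OV replicate 1 or 3. The differences kept their direction with each array left out. They ran from 0.22 to 0.36 for Igf1r, 0.18 to 0.21 for Igf2r and −0.38 to −0.19 for Igf2. The groups did not overlap at 3 probes, 2 with OV+E2 higher (2.88% of all probes did so) and 1 with OV+E2 lower (4.01% of all probes). Over the 10 genes the median difference was −0.18, against 0.0011 over all tested probes, with 7 lower and 3 higher. Without OV replicate 3 the median was −0.06, again with 7 lower and 3 higher, and 0 of 18 probes passed (0.00331% of all probes did). In that fit 7 of 18 probes were under an unadjusted p of 0.05 (14.1% of all), 3 higher (5.84%) and 4 lower (8.27%). Array weights were 0.0489 for OV replicate 3, 0.472, 4.25 and 0.820 for OV replicates 1, 2 and 5, and 0.784 to 3.00 in OV+E2. With these weights, highest for OV replicate 2, 5 of 18 probes passed, where 11.6% of all probes did. Values of the authors' deposited table put 8 of 18 under the unadjusted p, where 18.8% of its probes were. The differences at all 18 probes are drawn with their intervals.

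**Figure D1:**
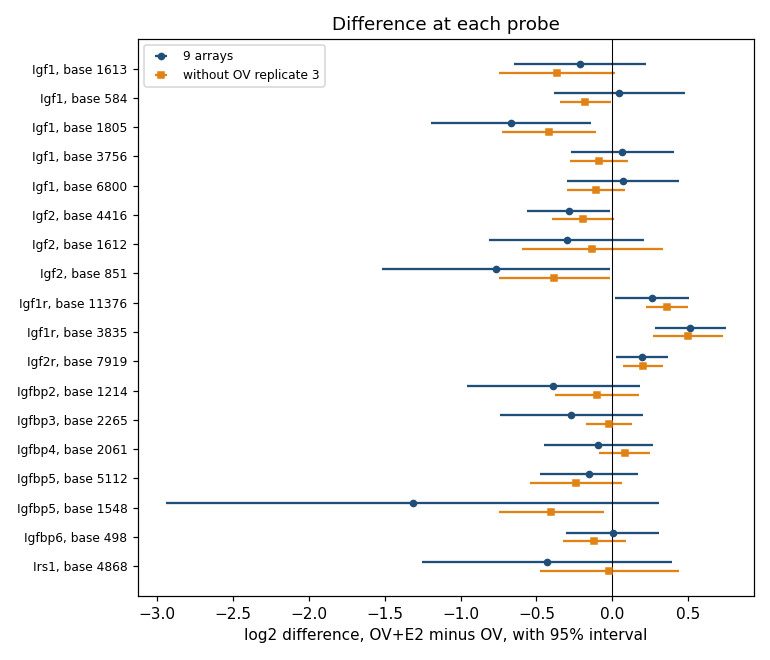
Log2 difference (OV+E2 minus OV, x axis) with its 95% interval at each of the 18 probes of the 10 genes (y axis, with the base of the transcript at which the probe starts), for all 9 arrays (circles) and without OV replicate 3 (squares). Igf1r and Igf2r lie above 0 in both fits, and the widest interval is that of Igfbp5 at base 1548, from −2.94 to 0.31 with 9 arrays.

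Igf2 encodes the growth factor IGF-2, an imprinted gene of growth before birth that stays active in the coverings of the adult brain. Its brightest probe (rn4 chromosome 1, 202906641 to 202906700, minus strand, base 4416 of the transcript) read 4.56, 4.74, 5.11 and 4.89 in OV replicates 1, 2, 3 and 5. It read 4.57, 4.64, 4.46, 4.56 and 4.46 in OV+E2 replicates 1 to 5. The groups overlapped, because OV replicate 1 lay among the treated rats while the other OV rats lay above all of them. The mean was 4.83 (SD 0.23, n = 4) in OV and 4.54 (SD 0.08, n = 5) in OV+E2, a difference of −0.29 with a 95% interval from −0.56 to −0.02 (limma, adjusted p = 0.458). It was −0.20 on slide 1, −0.40 on slide 2 and −0.19 without OV replicate 3. Here and below, slide 2 values rest on OV replicate 5 as the only OV rat, and slide 1 holds OV replicate 3. In the authors' deposited table the values of this probe gave −0.12.

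The other Igf2 probes were also lower in OV+E2. At base 1612 the difference was −0.30 (SE 0.23), and without OV replicate 3 −0.13 (SE 0.20). At base 851 the dim probe read −3.65, −3.83, −2.21 and −3.79 in OV replicates 1, 2, 3 and 5, and −4.46, −4.06, −4.41, −3.86 and −3.89 in OV+E2 replicates 1 to 5. All OV rats lay above all OV+E2 rats, with OV replicate 3 far above its group. The difference of −0.77 (SE 0.33, limma adjusted p = 0.474) became −0.38 (SE 0.16, adjusted p = 0.332) without that array.

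Markers of cells that can make IGF-2 were measured on the same arrays. Of 10 genes of the meninges and fibroblasts 6 were lower and 4 higher, with a median of −0.13. Leaving out OV replicate 3, 9 of 10 were lower, with a median of −0.21, and 5 were under an unadjusted p of 0.05. In that fit 14.1% of all probes were under it, 8.27% on the lower side. The proteoglycan genes Dcn and Lum turned there from 0.20 and 0.13 to −0.23 and −0.23. Col1a1, Col1a2 and Col3a1, which encode fibrillar collagens, were under that p with all rats, at −0.62, −0.33 and −0.47. The summed level of that list, relative to the 75th percentile, ran from 35.4 to 45.3 in OV and from 33.6 to 37.6 in OV+E2. All 10 choroid plexus genes were higher in OV+E2, the opposite direction to Igf2, with a median of 0.66, and of 1.01 without OV replicate 3. Ttr, which encodes the thyroid hormone carrier transthyretin, was at 1.02 (SE 1.06) and Kl, which encodes Klotho, at 0.90 (SE 0.72), and without that array at 1.73 and 1.35. The tight junction gene Cldn2 was the only one of them under an unadjusted p of 0.05, at 2.11 (SE 0.87), and without that array (1.86) none of the 10 was. The choroid plexus sum was 350, 13.9, 758 and 312 in OV replicates 1, 2, 3 and 5 and ran from 258 to 491 in OV+E2. OV replicates 2 and 3 thus stood apart in opposite directions, and the other OV rats lay within the range of the treated ones. Summed levels add linear values, so the brightest probes weigh most in each list. In OV+E2 the choroid plexus sum was mostly Ttr, at a mean log2 level of 8.42, with the other genes at 1.69 or lower. On slide 1 Ttr, Kl and Cldn2 differed by 1.52, 1.45 and 3.05, and on slide 2 by 0.03, 0.21 and 0.10. The part of these markers in the difference of Igf2 was not tested.

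Igf1 encodes IGF-1, the main growth factor under growth hormone, which brain cells also make locally. Its 5 probes lie between 24587916 and 24610838 on chromosome 7 (rn4, plus strand). The brightest, at base 1613, read 1.26, 1.27, 0.45 and 0.64 in OV replicates 1, 2, 3 and 5, and 0.71, 0.71, 0.95, 0.60 and 0.48 in OV+E2 replicates 1 to 5. OV replicates 1 and 2 were above all treated rats, and the remaining OV rats fell within or below them. The difference was −0.21 (SE 0.19, limma adjusted p = 0.582), with −0.28 on slide 1, 0.04 on slide 2 and −0.36 (SE 0.17, adjusted p = 0.378) without OV replicate 3.

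The other Igf1 probes split with all 9 arrays. At base 1805 the difference was −0.67 (SE 0.23, limma adjusted p = 0.375), with levels from −3.28 to −2.08 in OV and from −3.72 to −3.23 in OV+E2, and −0.42 (SE 0.14) without OV replicate 3. At bases 584, 3756 and 6800 it was 0.05 (SE 0.19), 0.07 (SE 0.15) and 0.07 (SE 0.16). These 3 turned to −0.18, −0.09 and −0.11 without OV replicate 3, which was the lowest of all 9 arrays at each of them. At base 584, which 10 spots on each array measured, the OV rats other than replicate 3 read 0.15, 0.27 and 0.33 and the OV+E2 rats 0.00, 0.14, −0.03, 0.14 and 0.12. These 3 OV rats lay just above all treated rats. Without OV replicate 3 all 5 probes were lower in OV+E2, from −0.42 to −0.09, and 0 of 5 passed. Values of the authors' deposited table put all 5 lower too, at −0.38, −0.17, −0.48, −0.09 and −0.11 for bases 1613, 584, 1805, 3756 and 6800, and 0 of 5 passed. With array weights all 5 were also lower, from −0.51 at base 1613, which passed (limma adjusted p = 0.0437), to −0.079 at base 6800. Those weights were 4.25 for OV replicate 2, the highest, and 0.0489 for OV replicate 3. With slide as a block and all 9 arrays, bases 1613 and 1805 were at −0.16 and −0.62. Bases 584, 3756 and 6800 were there at −0.0099, 0.00067 and −0.018. Without OV replicate 3, levels at base 1613 correlated weakly with bases 584, 1805, 3756 and 6800 (r = 0.12, 0.25, 0.08 and −0.14). Bases 584, 3756 and 6800 followed each other more closely there, with r from 0.68 to 0.86. Base 1805 had r from 0.21 to 0.60 with these. The probe sequence at base 1613 holds a run of ct repeats. Values that give Igf1 by its brightest probe therefore describe base 1613 and not the other probes. The levels of both ligand genes in each rat are plotted by probe.

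**Figure D2:**
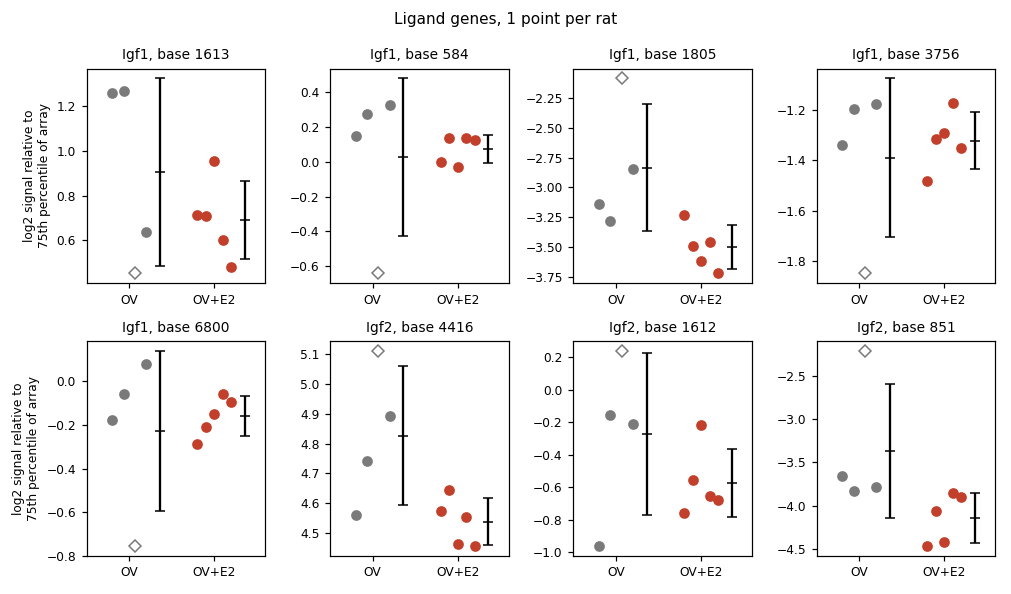
Level of each Igf1 and Igf2 probe (y axis, log2 signal relative to the 75th percentile of the array) in OV and OV+E2 rats (x axis), 1 point per rat, with the group mean and SD as a bar to the right. The open diamond is OV replicate 3, which lay below the other rats at bases 1613, 584, 3756 and 6800 of Igf1 and above them at all 3 probes of Igf2.

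Microglia, known to make IGF-1, were followed by 8 markers, of which 4 were lower and 4 higher, with a median of −0.10. The fractalkine receptor gene Cx3cr1 (−0.74), the integrin gene Itgam (−0.58) and the calcium-binding protein gene Aif1 (−0.39) were under an unadjusted p of 0.05. Cx3cr1 (−0.47) was not under it without OV replicate 3. The purinergic receptor gene P2ry12 was at −0.25. The 4 higher markers were Tmem119 at 0.099, C1qb at 0.071, Csf1r at 0.042 and C1qa at 0.037. Without OV replicate 3 these were at 0.042, 0.18, −0.089 and 0.0015. The list had a median of −0.17 without that array, and 5 of 8 were lower. The summed level of the list was 45.0 to 65.4 in OV (45.0 to 52.9 without replicate 3) and 42.2 to 47.1 in OV+E2. The part of these markers in the differences of Igf1 was not tested.

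Igf1r encodes the receptor tyrosine kinase through which both peptides signal. The probe at base 3835 (rn4 chromosome 1, 122989150 to 122989209, plus strand) is shown because it gave the smallest p of the 18 probes:
Igf1r probe: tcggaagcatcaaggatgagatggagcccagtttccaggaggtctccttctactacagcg
These 60 bases hold no stop codon in 2 of 3 forward frames. The probe read −1.46, −1.77, −1.75 and −1.89 in OV replicates 1, 2, 3 and 5, and −1.19, −1.28, −1.26, −1.16 and −1.13 in OV+E2 replicates 1 to 5. Every treated rat lay above every OV rat, OV replicate 3 included. The mean moved from −1.72 (SD 0.18, n = 4) to −1.21 (SD 0.06, n = 5), a difference of 0.51 (95% interval 0.28 to 0.75) or 1.43-fold, with an adjusted p of 0.252 in limma. By its unadjusted p it ranked 90 among 30215 probes. The difference was 0.42 on slide 1, 0.70 on slide 2 and 0.50 without OV replicate 3, and after normexp background correction it was 0.28.

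The brighter Igf1r probe starts at base 11376 of a longer transcript (122996687 to 122996746). It read 1.87, 1.75, 2.19 and 1.75 in OV replicates 1, 2, 3 and 5, and 2.19, 2.16, 2.09, 2.16 and 2.16 in OV+E2 replicates 1 to 5. OV replicate 3 was as high as the treated rats, and the other 3 OV rats lay below all of them. The difference was 0.26 (SE 0.11, limma adjusted p = 0.456) with 9 arrays and 0.36 (SE 0.06, adjusted p = 0.139) without OV replicate 3. On slides 1 and 2 it was 0.24 and 0.39. In the authors' deposited table this rat's signal was 2189, next to 2411, 2207 and 2213 in OV replicates 1, 2 and 5 and 2795 to 2996 in OV+E2. With those values Igf1r rose by 0.38 and passed (limma adjusted p = 0.0428, a threshold met by 0.23% of the probes in that table), and without OV replicate 3 it did not (0.141). The probe at base 3835 gave 0.49 there (adjusted p = 0.0545).

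Igf2r encodes the cation-independent mannose 6-phosphate receptor, which binds IGF-2 and carries lysosomal enzymes. Its probe (rn4 chromosome 1, 42340766 to 42340825, plus strand, base 7919) was printed in 10 spots. It read 2.08, 2.01, 2.05 and 1.97 in OV replicates 1, 2, 3 and 5, and 2.18, 2.23, 2.26, 2.19 and 2.25 in OV+E2 replicates 1 to 5. Every treated rat lay above every OV rat, and OV replicate 3 sat in the middle of its group. The means were 2.03 (SD 0.05, n = 4) and 2.22 (SD 0.03, n = 5). The difference of 0.20 (95% interval 0.03 to 0.37, 1.15-fold) had an adjusted p of 0.429 in limma, and it was 0.16 on slide 1, 0.27 on slide 2 and 0.20 without OV replicate 3. In the authors' deposited table it was 0.22 (adjusted p = 0.0751).

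**Figure D3:**
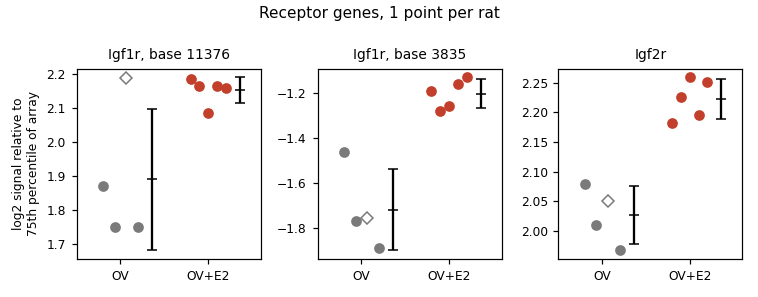
Level of the 2 Igf1r probes and the Igf2r probe (y axis, log2 signal relative to the 75th percentile of the array) in OV and OV+E2 rats (x axis), 1 point per rat, with mean and SD as a bar. All 5 treated rats lie above all OV rats at Igf1r base 3835 and at Igf2r, while OV replicate 3 (open diamond, 2.19) is as high as the treated rats at Igf1r base 11376.

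Without OV replicate 3 all 3 receptor probes were free of overlap with OV+E2 higher, where 5.01% of all probes were, and 2 ligand probes (Igf1 base 584 and Igf2 base 851) with OV+E2 lower, where 5.42% were. Neurons, in which both receptors are known to be expressed, were followed by 6 markers. All 6 were higher in OV+E2, with a median of 0.21. Without OV replicate 3 the median was 0.13 and 4 of 6 were higher, with Snap25 at −0.011 and Gad2 at −0.0095. The neuronal splicing factor gene Rbfox3 was at 0.11 (SE 0.11), the synaptic protein gene Snap25 at 0.35 (SE 0.29) and the glutamate transporter gene Slc17a7 at 0.30 (SE 0.09), the only one under an unadjusted p of 0.05. Their summed level was 118 to 158 in OV and 152 to 165 in OV+E2, and 133 to 158 in OV without replicate 3. Their part in the receptor differences was not tested.

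The promoters of the receptor genes are printed because these genes shared a direction. Each line gives the 250 bases before the start of the gene in RefSeq (build GRCr8), with the GC box GGGCGG and the GGTCA core of an oestrogen response element in capitals, on either strand.
Igf1r (chr1:130959747-130959996, plus strand): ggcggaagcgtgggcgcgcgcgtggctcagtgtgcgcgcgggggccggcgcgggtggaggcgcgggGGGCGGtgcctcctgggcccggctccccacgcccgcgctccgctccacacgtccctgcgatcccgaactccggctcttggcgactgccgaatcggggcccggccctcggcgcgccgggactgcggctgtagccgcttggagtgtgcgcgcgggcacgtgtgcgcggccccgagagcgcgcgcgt
Igf2r (chr1:50526628-50526877, plus strand): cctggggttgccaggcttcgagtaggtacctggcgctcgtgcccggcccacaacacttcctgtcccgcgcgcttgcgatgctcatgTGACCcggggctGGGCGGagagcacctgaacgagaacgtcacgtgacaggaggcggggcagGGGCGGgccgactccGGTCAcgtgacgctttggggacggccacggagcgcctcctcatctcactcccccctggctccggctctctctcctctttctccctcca
The Igf1r stretch is 79.6% G and C, against a median of 51.2% over 33469 RefSeq promoters, and holds 1 GC box and 0 GGTCA cores. The Igf2r stretch is 68% G and C and holds 2 GC boxes and 2 cores. All 10 genes had a promoter in the table (Igf2 had 2), and 5 held a GC box (30.5% of all promoters did) and 2, Igf2 and Igf2r, a core (35.4% did). The complete oestrogen response element, GGTCA followed after 3 bases by TGACC, was in 0 of the 10 and in 0.0239% of all promoters. These are matches of letters in a short window, and binding was not measured.

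The intervals of the 6 binding protein probes of Igfbp2 to Igfbp6 and of Irs1 included 0 with all rats. Igfbp2, a binding protein of the cerebrospinal fluid that prefers IGF-2, read 3.57 to 3.78 in OV replicates 1, 2 and 5, 4.81 in OV replicate 3, and 3.35 to 3.88 in OV+E2. The difference was −0.39 (SE 0.25) with OV replicate 3 and −0.10 (SE 0.12) without it. Igfbp3, the main carrier in blood, read 1.08 to 1.24 in the same 3 OV rats, 2.16 in OV replicate 3 and 1.05 to 1.22 in OV+E2. Its difference moved from −0.27 (SE 0.21) to −0.02 (SE 0.07, 95% interval −0.17 to 0.13). At both genes the groups overlapped, also without OV replicate 3.

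Igfbp4, which mostly restrains IGF action and is cut by the protease Pappa, was at −0.092 (SE 0.16) and turned to 0.081 (SE 0.07) without OV replicate 3. With median scaling Igfbp4 was at 0.013, and in the authors' deposited table at 0.15. Igfbp6, which binds IGF-2 with preference, was at 0.0042 (SE 0.14), and at −0.12 (SE 0.09) without OV replicate 3. Neither gene therefore had a direction that held across the settings.

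Igfbp5, which binds matrix as well as IGFs, was lower at both of its probes. At base 5112 the difference was −0.15 (SE 0.14), and −0.24 (SE 0.13) without OV replicate 3. The slides differed in sign there, with 0.05 on slide 1 and −0.37 on slide 2. At base 1548 OV replicate 3 read 0.84 and the other OV rats −3.04, −2.72 and −2.70, against −3.44 to −2.83 in OV+E2. There the difference was −1.32 (SE 0.72) with all rats and −0.40 (SE 0.15, limma adjusted p = 0.291) without OV replicate 3. Irs1, the docking protein of the insulin and IGF-1 receptors, was dim and read −4.67 to −2.70 in OV and −4.59 to −3.90 in OV+E2. Its difference of −0.43 (SE 0.37) became −0.02 (SE 0.20) without OV replicate 3, which was again the highest array.

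**Figure D4:**
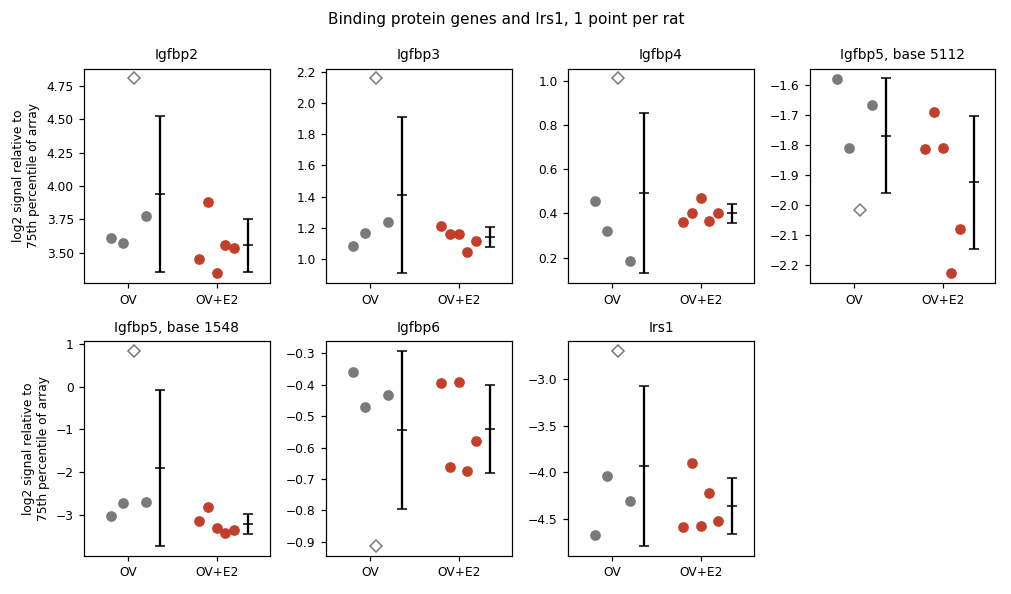
Level of the binding protein genes and Irs1 (y axis, log2 signal relative to the 75th percentile of the array) in OV and OV+E2 rats (x axis), 1 point per rat, with mean and SD as a bar. OV replicate 3 (open diamond) is the highest array for Igfbp2 (4.81), Igfbp3 (2.16), Igfbp4, Igfbp5 at base 1548 (0.84) and Irs1, and the lowest for Igfbp6.

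Vessel cells, which are known to express several binding proteins, were followed by 8 endothelial and 8 mural markers. Of the endothelial genes 6 were lower, with a median of −0.22 (−0.14 without OV replicate 3). Their summed level was 23.7 to 37.0 in OV (23.7 to 25.4 without replicate 3) and 21.2 to 24.3 in OV+E2. Pecam1 was at −0.53 and Cldn5 at 0.01, and Slco1a4 (−0.37) and Vwf (−0.60) were under an unadjusted p of 0.05. With OV replicate 3 left out Pecam1 was at −0.18, Cldn5 at −0.086 and Vwf at −0.32, the last still under that p. Of the pericyte and smooth muscle genes 5 were lower, with a median of −0.09 (−0.024 without OV replicate 3). Pdgfrb was at −0.17 and Rgs5 at −0.04, and Vtn (−0.32) and Des (−0.61) were under that p. Pdgfrb was at 0.083 without OV replicate 3, where Des (−0.39) was not under that p. Astrocyte genes had a median of −0.01 (Gfap −0.01, Aqp4 −0.13), with 0 of 6 under that p. The median without OV replicate 3 was −0.13, 5 of 6 were lower, and Gfap (−0.31) and Aqp4 (−0.19) were under it. All 6 oligodendrocyte genes were lower, with a median of −0.37, Mbp at −0.65 and Mobp, under that p, at −0.58. The oligodendrocyte median without OV replicate 3 was −0.23, Mbp was at −0.28 and under that p, and Mobp was at −0.36 and not under it. Their summed level was 1520 in OV replicate 3, 597 to 755 in the other OV rats and 502 to 653 in OV+E2. Mbp, at a mean log2 level of 8.51 in OV+E2, weighed most in that sum. Of the amygdala genes Prkcd, a marker of the central nucleus, was at 0.85 (SE 0.52), with 2.00 on slide 1 and 0.20 on slide 2. The summed level of the amygdala genes was 16.4 in OV+E2 replicate 2 and 6.1 to 9.1 in the other treated rats, and 11.8 in OV replicate 3 and 5.4 to 6.3 in the other OV rats. Crh was at 0.05 (0.096 without OV replicate 3), Neurod6 at −0.07 and Meis2 at −0.50, and without OV replicate 3 these last were at 0.015 and 0.0091. Rspo2 was well above background on at most 3 arrays and was not tested. The part of these markers in the binding protein values was not tested.

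Beyond the 10 genes, 43 further genes of insulin and IGF signalling were listed, and 38 were bright enough to test. In limma 0 of 38 passed over all probes, and 9 were under an unadjusted p of 0.05, 6 higher and 3 lower. Of all probes 10.4% were, 3.2% higher and 7.17% lower. The median was −0.02, with 17 higher and 21 lower, and 0.052 without OV replicate 3, with 22 higher and 16 lower. The count was 9 without OV replicate 3 too, where 14.1% of all probes were under that p. Of these 9 genes 7 were under it in both fits. With slide as a block it was 4, where 7.63% of all probes were under that p. It was 4 without OV+E2 replicate 5, and 5 without OV+E2 replicate 1, 2 or 4. The share of all probes was not taken in these fits. By group, those under that p were 3 of 4 genes of binding protein cleavage, 1 of 3 other binding proteins, 2 of 8 adaptors, 2 of 10 PI3 kinase and Akt genes and 1 of 9 downstream genes, with 0 of 2 insulin genes and 0 of 2 Igf2 mRNA binding genes.

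All 4 tested genes of binding protein cleavage were higher in OV+E2, with a median of 0.45 (0.31 without OV replicate 3). Htra1, a secreted serine protease that can cut binding proteins, was higher by 0.92 (SE 0.25, limma adjusted p = 0.286), with no overlap between groups. Without OV replicate 3 it was at 0.62, and on slides 1 and 2 at 1.05 and 0.73. Pappa2, a metalloprotease that cuts Igfbp3 and Igfbp5, was at 0.41 (SE 0.12, adjusted p = 0.314) and at 0.35 without OV replicate 3. Stc1, which encodes a stanniocalcin that inhibits these metalloproteases, was at 0.50 (SE 0.21), and at 0.27 without OV replicate 3. Pappa itself was at 0.31 (SE 0.32), with 0.83 on slide 1, −0.42 on slide 2 and 0.097 without that array. The members thus include both proteases and an inhibitor. The choroid plexus markers given above were higher on the same arrays, and their part in these values was not tested.

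Inside the cell, Pik3r3, a regulatory subunit of PI3 kinase, was lower in OV+E2, at −0.57 (SE 0.13, limma adjusted p = 0.252), with no overlap, and −0.62 without OV replicate 3. The docking protein gene Irs4 was at −0.72 (SE 0.30) and Irs2 at 0.49 (SE 0.20), so these relatives of Irs1 ran in opposite directions. With OV replicate 3 left out they were at −0.40 and 0.26, and Irs4 was no longer under an unadjusted p of 0.05. Igfbp1, a binding protein gene that insulin represses in liver, was at −0.59 (SE 0.24), and at −0.33 without that array. None of these passed over all probes.

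**Figure D5:**
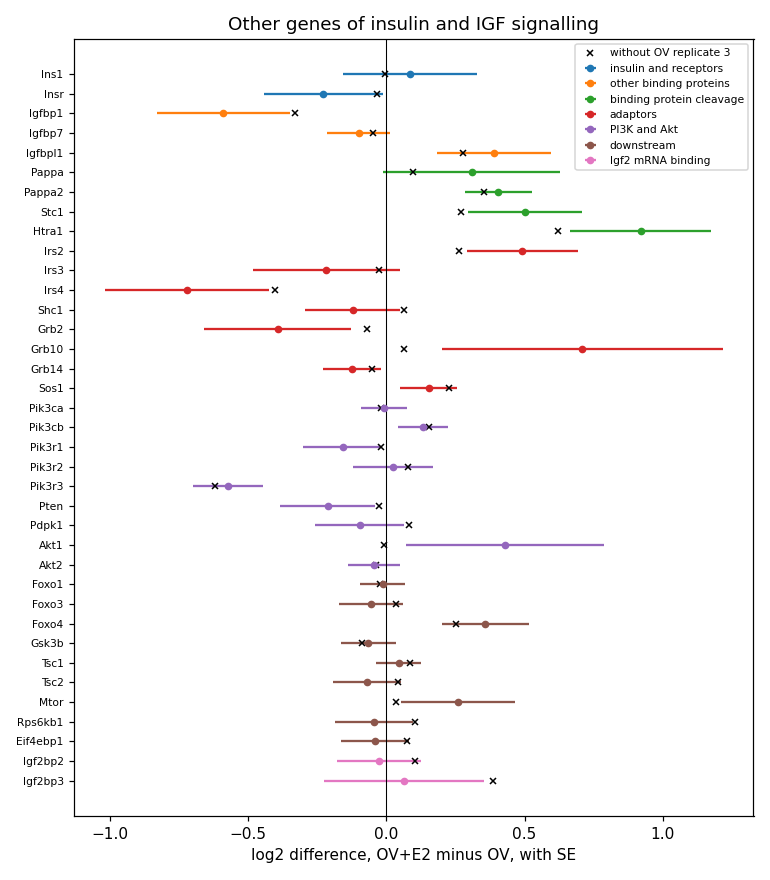
Log2 difference (OV+E2 minus OV, x axis) with its SE for 37 of the 38 tested further genes of insulin and IGF signalling (y axis), coloured by group, with crosses for the fit without OV replicate 3. Htra1, at 0.92, is the highest and Irs4, at −0.72, the lowest, and both move toward 0 without that array.

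Patterns across rats were ranked by Pearson r over the 8 arrays other than OV replicate 3, among 14979 named genes. Closest to Igf2 were Ifitm3 (0.983), Slamf9 (0.977) and Wrn (0.976). Over 9 arrays Slamf9 and Wrn stayed at 0.981 and 0.928, while Ifitm3 was at −0.284. Closest to Igf2r, the gene of smallest p among brightest probes, were Sap30 (0.993), Fxr2 (0.992) and Efr3a (0.989), with 0.966, 0.259 and 0.572 over 9 arrays. Closest to Igf1 at base 1613 were Lrmda (0.996), Prlhr (0.986) and Rab39a (0.983), with 0.997, 0.986 and 0.893 over 9 arrays. With so many genes and so few arrays high values of r are common, and these ranks are a description only.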

How the data were processed

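RNA (200 ng per rat) was labelled with Cy3 and hybridised to Agilent rat arrays. The deposited scanner files hold the processed signal, a background-subtracted intensity. Per the file headers it came from Feature Extraction 10.7.3.1 (GE1_107_Sep09), with probe positions of build rn4. The submitters' processing notes name Feature Extraction 9.1. Of 62976 spots 4259 controls and any spot marked as an outlier were left out, spots of a probe were averaged, and log2 signals were taken relative to the 75th percentile of the array. OV+E2 was compared with OV by limma 3.58.1 in R 4.3.3 with group as the only term, over 30215 probes that were clearly above background on 4 or more arrays. P values were adjusted by Benjamini-Hochberg. The brightest probe represented a gene. The number of arrays limits the precision.

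The authors' deposited table of linear intensity, of unstated scaling, has medians from 296 to 308 and served as an alternative. Slide 1 held OV replicates 1, 2 and 3 and OV+E2 replicates 1 and 2, and slide 2 the rest. Other alternatives were quantile and median scaling, normexp with an offset of 50, other filters, slide or replicate number as a block, array weights, leaving out each array, and the mean of the probes of a gene. Marker and pathway genes were named through RefSeq by accession (21184 probes), symbol (9060) or synonym (406), and 14948 probes were unmatched. The members and lists were chosen with earlier results of these data known. Named were all members, the 3 pathway genes ranked first on each side, the 3 genes most like Igf1, Igf2 and the top-ranked member, and in each marker list the leading pair and any gene under the unadjusted threshold. Irs2, Stc1, Pappa, Dcn, Lum, Gad2, Tmem119, C1qb, Csf1r, C1qa and the amygdala genes beyond the leading pair were named after their values were seen. A gene of the pathway list and a marker that this rule names are not reported here. The fit was tested on simulated data of 30175 probes, with 200 of them changed. At an adjusted p under 0.05 it recovered 14% at 1.5-fold, 32% at 2-fold, 84% at 3-fold and 88% at 4-fold. It also made 11 false calls. Changes below 1.5-fold were not simulated.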

Additional observations from a re-analysis of the deposited data

Results flagged for a closer look

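In 36 groups (18 probes in OV and in OV+E2) the gap between the highest or lowest rat and its nearest neighbour was taken as a share of the range of the group. In 5 groups it was above Dixon's 95% critical value for the size of the group, which chance passes in about 1 in 20 groups. In 4 of the 5 the rat was OV replicate 3. Its level was −2.21 at base 851 of Igf2 (next −3.65, share 0.891), 4.81 for Igfbp2 (next 3.78, share 0.836), 2.16 for Igfbp3 (next 1.24, share 0.857) and 0.84 at base 1548 of Igfbp5 (next −2.70, share 0.913). The fifth was OV+E2 replicate 3, low for Igf1r at base 11376 with 2.09 (next 2.16, share 0.729).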

How the results depend on the processing

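The number of probes passing an adjusted p of 0.05, 0 of 30215 in the planned comparison with 3134 at an unadjusted p under 0.05, was 9 with no filter, 69 in the authors' deposited table, 3499 with array weights and 0 to 1 with each array left out. It was 1 in the authors' table without OV replicate 3 and 1 with slide as a block without it, both chosen after seeing the data. Of the 18 probes 1 passed in the authors' table and 5 with array weights (Igf1 base 1613, Igf2 base 4416 and the 3 receptor probes), and 0 with any array left out. The array weights lay mostly on 1 OV rat, with 4.25 for OV replicate 2 and at most 0.820 for the other OV rats. Genes under an unadjusted p of 0.05, 3 of 10, were 0 with no filter, 0 with the replicate block and 0 to 2 with each array left out. Pathway genes under that p, 9 of 38, were 4 after normexp, 4 with slide as a block and 4 to 9 with each array left out. The median over the 10 genes stayed below 0, from −0.23 to −0.03. Igf1, Igf2, Igf1r, Igf2r, Igfbp2, Igfbp3 and Igfbp5 kept their direction at the brightest probe in all 21 alternatives. Some came close to 0, with Igfbp3 at −0.0074 and Igfbp2 at −0.053 in the authors' table. Igfbp5 was at −0.049 with median scaling. For Igf1 this holds for base 1613 only, because bases 584, 3756 and 6800 turned without OV replicate 3. Base 1613 also correlated only weakly with the other Igf1 probes without that array. Igfbp4 turned to 0.013 with median scaling, 0.15 in the authors' table, 0.081 with array weights, 0.081 without OV replicate 3 (−0.20 to 0.081 with each array left out), 0.081 in the authors' table without it and 0.10 with slide as a block without it. Igfbp6 turned to −0.028 after normexp, −0.053 in the authors' table, −0.012 with slide as a block, −0.089 with array weights, −0.12 without OV replicate 3 (−0.12 to 0.066 with each array left out, also below 0 without OV+E2 replicate 1 or 3), −0.12 in the authors' table without it and −0.11 with slide as a block without it. Irs1 turned to 0.0097 with slide as a block without OV replicate 3. The cause was not tested. Over all probes the median difference was 0.11 with median scaling, −0.11 after normexp and −0.13 with no filter. The labels do not say that replicate numbers pair the rats. Same-numbered rats deviated together at 0.170, −0.076, −0.011 and 0.105 for OV replicates 1, 2, 3 and 5. OV replicates 1 and 5 correlated best with their own number, and OV replicates 2 and 3 did not. So few rats cannot show whether the numbers pair them.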
